A study of Mus musculus with 11 samples.

Results

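The genes described here are 10 receptors and ligands through which T cells receive costimulation, respond to tumour necrosis factor (TNF) or trigger death in another cell. They are Cd28, Icos, Cd27, Tnfrsf9, Tnfrsf4, Tnfrsf18, Tnfrsf1b, Fas, Fasl and Tnfsf10. They were chosen by gene symbol from the 54532 genes of the deposited table, each symbol matched 1 gene, and all 10 were among the 13129 genes that passed the filter on low counts. The filter works on counts over the libraries, and none of the 10 genes was lost to it.

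The RNA came from splenic CD8+CD44+Ly49+CD122+ T cells, called CD8+ Tregs, of WT mice with no further treatment named in the labels. Young mice were 2 to 3 months old by the series description and gave 3 male and 3 female libraries. Middle-aged mice, which the labels call old, were 10 to 12 months old and gave 2 male and 3 female libraries. The legend for these libraries names 3 and 12 months. The study treats the libraries as biologically independent, and the sources used here do not say whether a library came from 1 mouse or from several. Whole groups are written as mean ± SD with n = 6 young and n = 5 middle-aged libraries. Levels are in CPM, the usual unit of counts scaled to library size, here with TMM factors, and fold changes are middle-aged over young.

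A T cell that meets its antigen needs a further signal to respond fully. CD28 and ICOS give that signal through a short cytoplasmic tail that recruits phosphoinositide 3-kinase, while CD27, CD137 (Tnfrsf9), OX40 (Tnfrsf4), GITR (Tnfrsf18) and TNF receptor type II (Tnfrsf1b) belong to the TNF receptor family and signal through TRAF adaptors to NF-kB. Fas carries a death domain and starts apoptosis when it binds Fas ligand (Fasl), and TRAIL (Tnfsf10) does the same through its own death receptor. Cytotoxic lymphocytes use Fas ligand beside granule contents to kill target cells, and CD8+ Tregs are known to restrain activated CD4 T cells.

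The libraries held the cells their label names, with Cd8a at 642.2 to 1015 CPM, Cd3e at 533.3 to 983.7 CPM and Il2rb, which encodes CD122, at 552 to 2625 CPM. Klra6, a Ly49 receptor gene, stood at 85.2 to 417 CPM and Ikzf2, which encodes Helios, at 10.8 to 69.2 CPM. The total count ran from 6135736 to 24394532 per library, so that a count of 0 allows up to 0.119 to 0.543 CPM. The 4 libraries numbered 1 stood apart from the other 7 in the slope of log2 CPM on gene length. Relative to the mean slope of the 11 libraries, it was -0.265 to -0.0944 in them and 0.0142 to 0.183 in the others. Differences between age groups are therefore also given within each replicate number. The 9 myeloid marker genes summed to 2667 CPM in middle-aged female 2, against 42.02 to 328.7 CPM in the other 10 libraries. In these bulk samples, fewer cells that express a gene and less RNA of it per cell cannot be told apart.

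The edgeR quasi-likelihood test called 0 of the 10 genes between age groups at an adjusted p under 0.05, with Fasl alone at an unadjusted p under 0.05. Over all genes tested it called 3, which is 0.0229%, and 2.99% had an unadjusted p under 0.05. DESeq2 and limma voom each called 1 of the 10 genes, which was Fasl both times, against 0.86% and 1.04% of all genes they adjusted. The log2 fold change was above 0 for 6 of the 10 genes, where 50.4% of all tested genes were above 0. The median was 0.187 for the 10 genes and 0.00278 for all tested genes. None of the 10 genes had groups that did not overlap, a pattern found in 1.31% of all tested genes.

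The 250 bases before the transcription start are shown for Fasl, Tnfrsf1b and Cd27, the 3 genes whose age groups were separated within every replicate number, as described further on. Capitals mark the core that NFAT factors bind, GGAAA or its reverse complement TTTCC. The sequences are RefSeq's on build GRCm38.p6, all from the minus strand and written 5′ to 3′, and they lie at chr1:161788496-161788745 for Fasl, chr4:145246871-145247120 for Tnfrsf1b and chr6:125237028-125237277 for Cd27.
Fasl: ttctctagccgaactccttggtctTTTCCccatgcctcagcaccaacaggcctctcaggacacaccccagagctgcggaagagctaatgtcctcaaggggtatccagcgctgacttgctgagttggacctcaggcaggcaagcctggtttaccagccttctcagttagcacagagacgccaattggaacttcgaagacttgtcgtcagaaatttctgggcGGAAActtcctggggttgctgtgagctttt
Tnfrsf1b: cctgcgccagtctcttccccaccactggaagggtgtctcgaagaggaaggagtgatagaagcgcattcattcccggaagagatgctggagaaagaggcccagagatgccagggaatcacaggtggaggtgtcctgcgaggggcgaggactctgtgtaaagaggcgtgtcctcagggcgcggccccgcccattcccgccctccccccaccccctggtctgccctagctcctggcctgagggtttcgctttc
Cd27: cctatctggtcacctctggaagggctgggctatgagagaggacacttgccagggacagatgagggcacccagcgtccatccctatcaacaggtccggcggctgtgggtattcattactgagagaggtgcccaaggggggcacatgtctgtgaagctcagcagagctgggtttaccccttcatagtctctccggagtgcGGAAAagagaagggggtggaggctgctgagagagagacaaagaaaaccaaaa
The Fasl window held the NFAT core at 226 and at 30 bases before the start, the Cd27 window held it at 52 bases, and the Tnfrsf1b window did not hold these letters. On either strand, 55.6% of 32851 promoter windows of the same length held the core. The AP-1 pattern TGANTCA, found in 6.75% of windows, was in none of these 3. These matches describe letters and say nothing of binding. Of the 10 genes, 8 had a window in the RefSeq table.

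Per kilobase of gene length, Cd27 had the highest level of the 10 genes, and the order below it depended on the library for several neighbours. Its mean over the 11 libraries was 241.6 CPM per kb, rank 254 of the 13129 tested genes. Tnfrsf18 followed at 89.54 CPM per kb, below Cd27 in 11 of 11 libraries and above Fasl, at 41.17 CPM per kb, in 10 of 11. Fasl, Tnfrsf1b (35.23 CPM per kb) and Cd28 (33.4 CPM per kb) could not be ordered over all libraries, since Fasl exceeded Tnfrsf1b in 5 of 11 libraries and Tnfrsf1b exceeded Cd28 in 6 of 11. Their order by mean was reversed between age groups. In young libraries it was Cd28 (34.6), Tnfrsf1b (27.8) and Fasl (22.1 CPM per kb), and in middle-aged libraries Fasl (64.1), Tnfrsf1b (44.2) and Cd28 (31.9 CPM per kb). Fasl exceeded Cd28 in 1 of 6 young and 5 of 5 middle-aged libraries. Fas stood at 17.23 CPM per kb, below Cd28 in 11 of 11 libraries, and Icos at 14.8 CPM per kb, below Fas in 7 of 11 libraries with a mean log2 ratio of 0.15 ± 0.41 (SD). The genes with the lowest levels were Tnfrsf9 (9.393 CPM per kb), Tnfsf10 (4.801) and Tnfrsf4 (3.301), whose log2 ratios to their next neighbour varied by an SD of 1.31 to 1.63. Cd28 varied least over the libraries, with a coefficient of variation of 13.5%, and Tnfrsf4 most, with 116%.

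**Figure D1:**
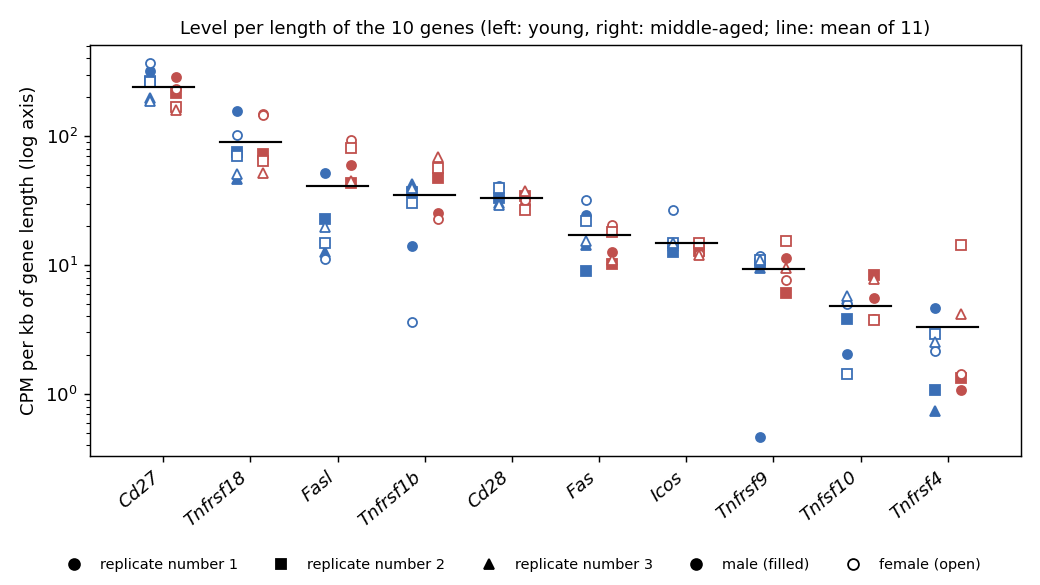
Level of each gene in CPM per kb of gene length on a log axis, with young libraries on the left (blue), middle-aged libraries on the right (red), the replicate number as the symbol, males filled, females open, and a line at the mean of 11 libraries. Cd27 sits highest in all 11 libraries, and the genes from Fasl to Cd28 overlap.

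Fasl, on chromosome 1 at 161780689 to 161788495 (minus strand, GRCm38), had the largest difference of the 10 genes. Young males had 99.65, 44.13 and 24.64 CPM and young females 21.41, 28.64 and 38.02 CPM. Middle-aged males had 114.7 and 83.81 CPM and middle-aged females 179.5, 155.3 and 87.35 CPM. Apart from young male 1, every young library lay below every middle-aged library, and young male 1 lay above 2 of them. Young CD8+ Tregs averaged 42.75 ± 29.13 CPM and middle-aged ones 124.1 ± 42.15 CPM, a ratio of 2.9.

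In edgeR the log2 fold change of Fasl was 1.65 (SE 0.43, unadjusted p = 0.00232), and the adjusted p of 0.457 did not pass the threshold. The adjusted p was 0.0215 in DESeq2 and 0.0108 in limma voom, and over the 27 settings run it ranged from 0.0108 to 1. The 2-sided exact permutation test, which assigned the age labels to the 11 libraries in all 462 ways and cannot go below 0.00216, gave p = 0.00866, with an adjusted p of 0.554 over all genes. It was under 0.05 for 1 of the 10 genes and for 4.81% of all tested genes. The difference in log2 CPM was 1.63, 1.68 and 1.51 within replicate numbers 1, 2 and 3. Number 1 joined unlike sexes, with males at 99.65 (young) and 114.7 CPM (middle-aged) and females at 21.41 and 179.5 CPM. Number 3 held 1 middle-aged library. Leaving out each library in turn gave a log2 fold change of 1.45 to 1.97. A block for replicate number within sex together with a term for gene length slope left 0.57 (edgeR adjusted p = 0.899).

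NK cells also use Fas ligand, and the summed level of their markers had a median of 868.7 CPM among young libraries against 576.5 CPM among middle-aged ones, with overlapping ranges. The 8 NK cell marker genes summed to between 720 and 1133 CPM in the young group and to between 368.5 and 988.1 CPM in the older group. The median of 7 of these 8 genes was lower in the middle-aged libraries, and that of Klre1 was higher. The sum therefore joins both directions. Ncr1 stood at 25.14 to 120.1 CPM in young against 1.807 to 48.85 CPM in the older group. Gzma had medians of 296.4 CPM in young and 37.76 CPM in the older group. Klre1 stood at 132.2 to 397.1 CPM in young against 202.6 to 589.8 CPM in the older group. Within the middle-aged group, the sum was highest in females 2 and 1, at 988.1 and 802.3 CPM, which also had the highest Fasl levels. In female 1, Klre1 alone held 589.8 CPM of that sum. The sum was lowest in male 2 and female 3, at 368.5 and 374.4 CPM, which had the lowest Fasl levels of that group. Within the young group, male 1 had the highest Fasl level and the lowest sum, 720 CPM. The part of the NK cell markers in the Fasl values was not tested. Within females the difference in Fasl was 2.23 on the log2 CPM scale and within males 1.04. The interaction of age and sex was not called by edgeR for Fasl (log2 1.43, SE 0.74, adjusted p = 1), with only 2 middle-aged males to estimate it.

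**Figure D2:**
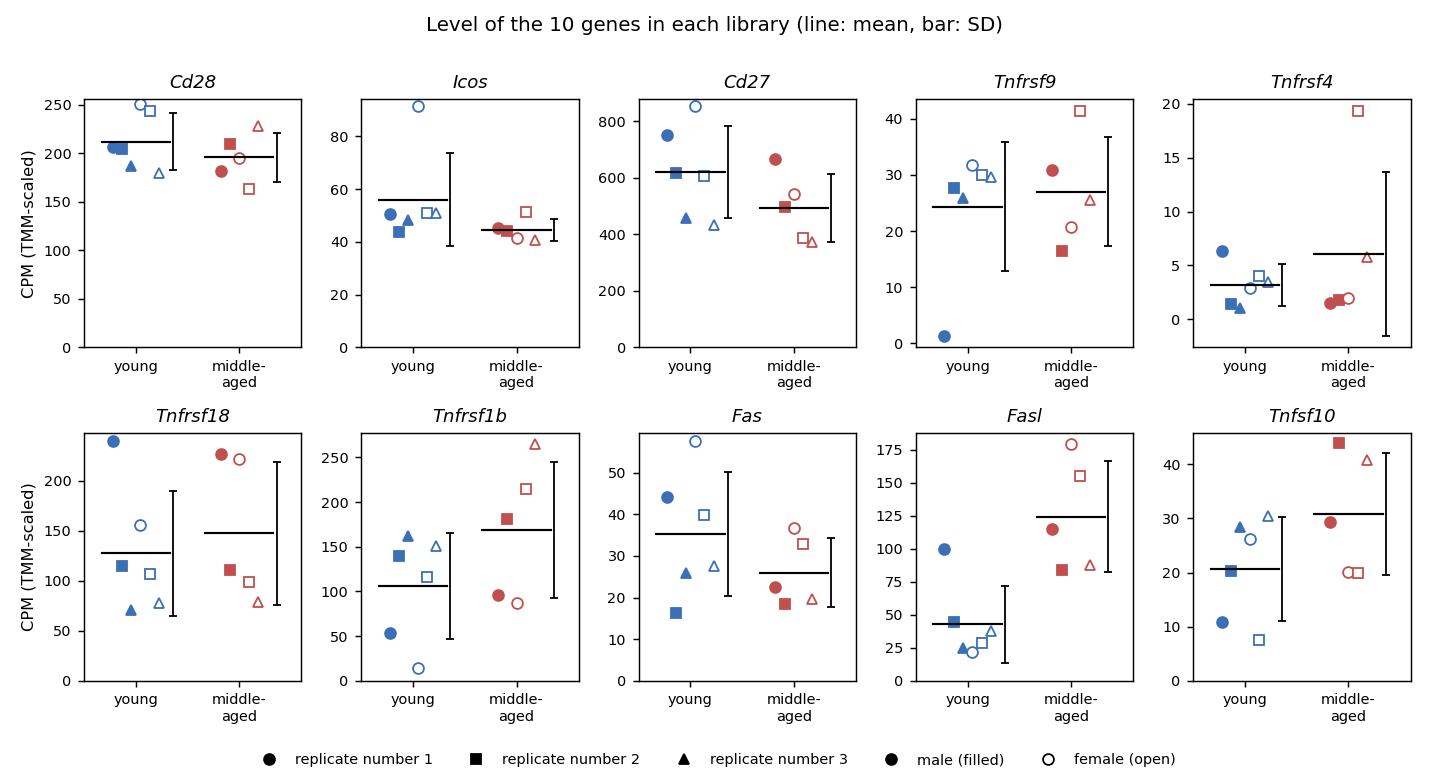
Level of the 10 genes in CPM in each young (blue) and middle-aged (red) library, with the replicate number as the symbol, males filled and females open; lines are group means and bars SD (n = 6 and n = 5). For Fasl, 5 of 6 young libraries lie below every middle-aged library, and the groups overlap for all 10 genes.

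Tnfsf10, the gene of TRAIL (chromosome 3, 27317028 to 27342427, plus strand), did not pass the test. Young libraries ranged from 7.559 to 30.47 CPM and middle-aged libraries from 19.85 to 44.03 CPM, with means of 20.65 ± 9.57 and 30.84 ± 11.28 CPM. The highest values were in middle-aged male 2 (44.03 CPM) and middle-aged female 3 (40.74 CPM), while middle-aged females 1 and 2 lay within the young range. Its fold change was 0.58 on the log2 scale (SE 0.41) and the edgeR adjusted p was 1. The differences within replicate numbers 1, 2 and 3 were 0.52, 1.25 and 0.47 in log2 CPM. Tnfrsf10b, the mouse death receptor for TRAIL, averaged 1.88 ± 1.12 CPM (young) and 3.78 ± 1.05 CPM (middle-aged), with an edgeR adjusted p of 1.

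Fas, the receptor of Fas ligand (chromosome 19, 34290659 to 34327770, plus strand), was not called either. The means were 35.22 ± 14.85 CPM (young) and 26.0 ± 8.24 CPM (middle-aged), with a log2 fold change of -0.49 (SE 0.32, edgeR adjusted p = 1). The highest level was 57.56 CPM in young female 1 and the lowest 16.29 CPM in young male 2, so the young range held every middle-aged value. The difference was -0.81, -0.0526 and -0.45 in log2 CPM within replicate numbers 1, 2 and 3. Within the same libraries, Fas and its ligand had fold changes of opposite sign, of which neither passed the edgeR threshold.

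Cd27 (chromosome 6, 125232622 to 125237010, minus strand) encodes the receptor for CD70, which supports survival of primed T cells. Young males had 749.8, 618.4 and 457.6 CPM and young females 853.6, 606.6 and 432.6 CPM. Middle-aged males had 667.4 and 498.2 CPM and middle-aged females 542.5, 388.3 and 371.5 CPM. The groups overlapped over most of their range, and the level was higher in the libraries numbered 1 in each group. Libraries numbered 1 exceeded the other 7 by 0.55 in log2 CPM, more than the age groups differed. The age difference was -0.33 on the log2 scale (SE 0.25, edgeR adjusted p = 1), and the means were 619.8 ± 163.2 and 493.6 ± 121.1 CPM. Its ligand Cd70 had at most 1 count in any library.

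Tnfrsf1b (chromosome 4, 145213463 to 145246870, minus strand) encodes the TNF receptor that lacks a death domain. Young males had 53.17, 139.8 and 161.5 CPM and young females 13.9, 116.6 and 150.8 CPM. Middle-aged males had 96.42 and 181.4 CPM and middle-aged females 86.97, 214.2 and 265.1 CPM. The 4 libraries numbered 1 had the 4 lowest values, 1.76 below the other 7 in log2 CPM, and within each number the middle-aged libraries were higher. The log2 fold change was 0.67 (SE 0.55, edgeR adjusted p = 1), and in the 7 libraries numbered 2 and 3 it was 0.62 (SE 0.20, unadjusted p = 0.0152, adjusted p = 0.79). That restriction was chosen after the values were seen. Smaller differences were found without young female 1 (0.36), in libraries over 10000000 counts (0.21) and in males alone (0.23). Tnf, the gene of its ligand, averaged 10.81 ± 6.43 CPM (young) and 16.23 ± 8.97 CPM (middle-aged), with an edgeR adjusted p of 1.

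Within every replicate number, each middle-aged library was above each young library for Fasl and Tnfrsf1b, and below for Cd27. Of all tested genes, 4.17% were above and 2.24% below in this way. This look at the data was also chosen after the values were seen, and it is given as a description. The differences within numbers were 1.75, 0.63 and 0.76 for Tnfrsf1b and -0.41, -0.48 and -0.26 for Cd27 in log2 CPM.

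**Figure D3:**
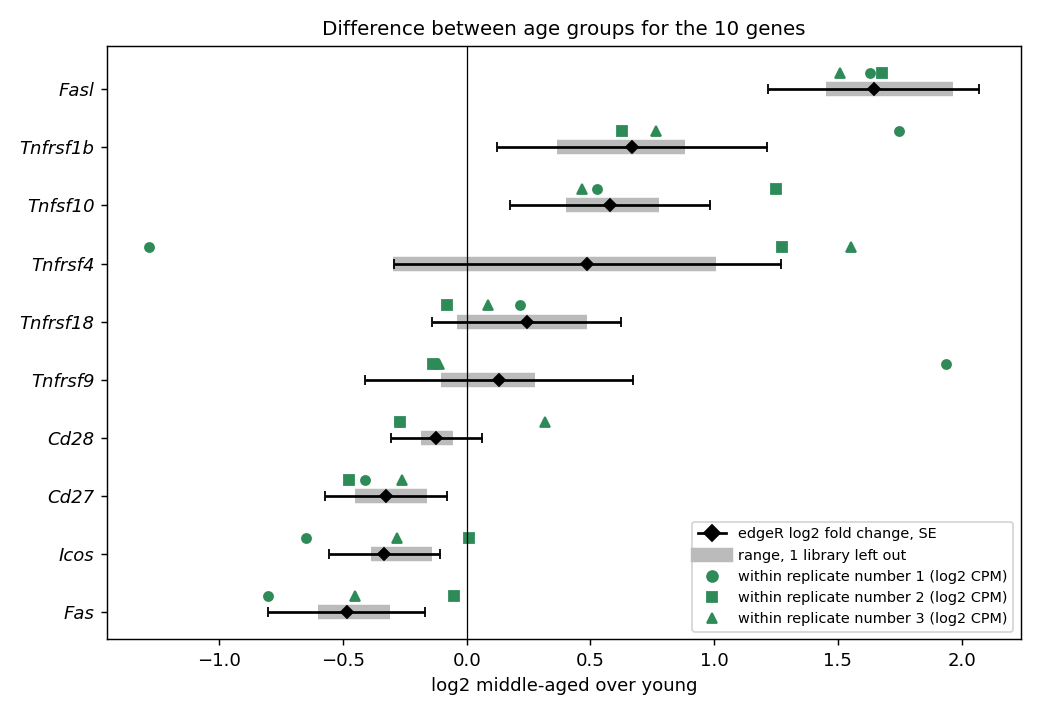
Log2 difference of middle-aged over young for the 10 genes: the edgeR fold change with its SE (diamond and bar), the range when 1 library is left out (grey) and the difference in log2 CPM within each replicate number (green). The Fasl values lie between 1.45 and 1.97, while Cd28, Icos, Tnfrsf18, Tnfrsf4 and Tnfrsf9 have values on both sides of 0.

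Tnfrsf18, the gene of GITR (chromosome 4, 156026164 to 156028895, plus strand), was not called between age groups. The means were 127.4 ± 62.65 CPM (young) and 147.3 ± 71.27 CPM (middle-aged), with a log2 fold change of 0.24 (SE 0.38, edgeR adjusted p = 1). Its level separated libraries by number more than by age, at 155.7 to 239.3 CPM in the 4 libraries numbered 1 and 70.58 to 115 CPM in the other 7. The differences within numbers were 0.217, -0.0814 and 0.0861 in log2 CPM. GITR ligand, Tnfsf18, had at most 1 count in any library.

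Tnfrsf9, the gene of CD137, an activation-induced receptor (chromosome 4, 150914562 to 150946102, plus strand), was set apart by young male 1. That library had 7 counts, or 1.266 CPM, while the other 5 young libraries had 25.84 to 31.84 CPM and the middle-aged libraries 16.47 to 41.49 CPM. Its log2 fold change was 0.13 (SE 0.54, edgeR adjusted p = 1), and without young male 1 it was -0.104, without middle-aged male 1 -0.0904 and without middle-aged female 2 -0.00602. Within numbers 2 and 3 the differences were -0.14 and -0.11 in log2 CPM.

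Tnfrsf4, the gene of OX40 (chromosome 4, 156013843 to 156016612, plus strand), had the lowest level per length, and its difference turned on 1 library. Young males had 6.33, 1.455 and 1.003 CPM and young females 2.92, 4.018 and 3.456 CPM. Middle-aged males had 1.474 and 1.83 CPM and middle-aged females 1.96, 19.39 and 5.738 CPM. Of the middle-aged libraries, 4 lay within the young range, and middle-aged female 2 was far above it. The log2 fold change of 0.49 (SE 0.78, edgeR adjusted p = 1) was -0.297 without that library and 1.01 without young male 1. OX40 is best known from CD4 T cells and CD4 Tregs, and middle-aged female 2 also had the highest Foxp3 level, 9.987 CPM against 0 to 4.078 CPM in the other 10 libraries, and the high myeloid sum given above. Other markers of the same cells went both ways there. Lrrc32 was also the highest, at 4.011 CPM against 0 to 1.289 CPM in the other 10 libraries. Bcl6 (16.42 CPM) and Ikzf4 (1.379 CPM) were the highest of the 5 middle-aged libraries. Cd4 (15.38 CPM) was close to the highest middle-aged value, 15.41 CPM in female 3, against 1.536 to 2.361 CPM in the remaining middle-aged libraries. Young libraries reached 18.72 CPM for Cd4. Il2ra (1.88 CPM) lay within the range of the other middle-aged libraries. Zbtb7b (1.421 CPM) and Cxcr5 (46.51 CPM) were the lowest of the 5. The 8 CD4 T cell and CD4 Treg markers summed to between 26.95 and 146.7 CPM in the young group and to between 89.9 and 167.5 CPM in the older group, where middle-aged female 2 had 96.98 CPM. The part of these markers in the Tnfrsf4 values was not tested.

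Neither CD28 family receptor was called between age groups. Cd28 (chromosome 1, 60716800 to 60773359, plus strand) ranged from 179.6 to 251.1 CPM in the young group and from 162.6 to 228.2 CPM in the older group. Its log2 fold change was -0.12 (SE 0.18, edgeR adjusted p = 1), with means of 212 ± 29.31 and 195.5 ± 25.28 CPM. Icos (chromosome 1, 60977927 to 61000320, plus strand), whose product supports T cell help and regulatory cells, had 50.46, 43.61 and 48.23 CPM in young males and 91.48, 51.04 and 50.92 CPM in young females. It had 45.26 and 44.03 CPM in middle-aged males and 41.42, 51.23 and 40.78 CPM in middle-aged females. Young female 1 stood far above every other library. The log2 fold change was -0.33 (SE 0.23, edgeR adjusted p = 1), and the exact permutation test gave p = 0.0866. Without young female 1 the log2 fold change was -0.14, and the exact test gave p = 0.135.

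Between sexes, edgeR called 0 of the 10 genes, with 0 at an unadjusted p under 0.05, where 0.0381% of all tested genes were called and 0.754% had an unadjusted p under 0.05. The largest sex difference was that of Tnfrsf4, 1.203 higher in females on the log2 scale with an unadjusted p of 0.158. For the interaction of age and sex, 0 of the 10 genes were called by edgeR, with 0 at an unadjusted p under 0.05. The shares over all tested genes were 0.0% called and 1.2% with an unadjusted p under 0.05. DESeq2 and limma voom also called 0 of the 10 genes for either.

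The other genes of these pathways were read from 6 lists, in which edgeR called 0 genes between age groups in either direction. The lists cover 13 tested of 22 further TNF receptor genes, 9 of 16 further TNF ligand genes, 8 of 11 further CD28 family and B7 genes, 24 of 24 TRAF and NF-kB kinase genes, 16 of 16 death receptor signalling genes and 21 of 21 CD28 and ICOS signalling genes. An unadjusted p under 0.05 was found for 3 TNF ligand genes, all higher in middle-aged libraries, and for 1 CD28 and ICOS signalling gene, which was lower. Of the 3 ligand genes, Tnfsf4 and Tnfsf9 would not have passed the filter on low counts without the middle-aged libraries. They reached it in 2 and 3 of 6 young libraries and in 5 of 5 middle-aged ones, where 5 were needed. Their direction is therefore not given as support, and neither is the TNF ligand median below, which includes both genes. Over all tested genes, the shares with an unadjusted p under 0.05 were 2.0% higher and 0.99% lower. The median log2 fold change of the lists was 0.12 for TNF receptors, 0.27 for TNF ligands, 0.31 for the CD28 family and B7 genes, 0.0555 for TRAF and kinase genes, 0.00203 for death receptor signalling and -0.0208 for CD28 and ICOS signalling.

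Tnfsf4, the gene of OX40 ligand (chromosome 1, 161395409 to 161418410, plus strand), was the pathway gene with the largest difference. The young male libraries had 0, 0 and 11 counts and the young female libraries 0, 31 and 1. The middle-aged males had 76 and 55 counts and the middle-aged females 65, 147 and 57. Means were 0.303 ± 0.50 CPM (young) and 3.83 ± 1.34 CPM (middle-aged), with no overlap between the age groups. The gene reached the count filter in 2 of 6 young and 5 of 5 middle-aged libraries, where 5 were needed, so it entered the test only through the group in which it was high. Its p values and its lack of overlap are therefore not given as support. The fitted log2 fold change of 3.53 (SE 1.07) depends on the prior count, since 3 young libraries were at 0. OX40 ligand is known from antigen-presenting cells. The summed myeloid markers ran from 42.02 to 209.1 CPM in the young group and from 152.8 to 2667 CPM in the older group. The median of 3 of these 9 markers was lower in the older group. The dendritic cell sums had medians of 18.0 CPM (young) and 15.17 CPM (middle-aged). Of the 7 single dendritic cell markers, 5 had a higher median in the older group and 2 a lower one. The B cell sums ran from 136.0 to 433.8 CPM (young) and from 177.0 to 629.5 CPM (middle-aged). The part of all these markers in the Tnfsf4 counts was not tested.

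Tnfsf9, the gene of the CD137 ligand (chromosome 17, 57105325 to 57107757, plus strand), averaged 0.467 ± 0.437 CPM (young) and 2.44 ± 1.06 CPM (middle-aged). Middle-aged female 3, at 1.043 CPM, lay below young male 2, at 1.127 CPM, and this was the only overlap. It reached the count filter in 3 of 6 young and 5 of 5 middle-aged libraries, so the same limit holds for it, and its fitted log2 fold change of 2.30 (SE 0.86) also depends on the prior count. Tnfsf14, the gene of LIGHT (chromosome 17, 57189492 to 57194177, minus strand), averaged 18.35 ± 3.47 CPM (young) and 31.29 ± 9.35 CPM (middle-aged), a log2 fold change of 0.77 (SE 0.28, edgeR adjusted p = 1). Its difference was 0.8 and 0.96 in log2 CPM within numbers 1 and 2 and -0.0122 within number 3.

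Tec, a kinase that acts below the T cell receptor and CD28 (chromosome 5, 72755716 to 72868483, minus strand), was lower in every middle-aged library than in every young one. Young libraries averaged 118.4 ± 23.68 CPM and middle-aged libraries 61.91 ± 16.44 CPM, and 0.297% of tested genes were separated in this direction. Its log2 fold change was -0.94 (SE 0.24, unadjusted p = 0.00211), the edgeR adjusted p was 0.454, and the exact permutation p was 0.00216, the smallest this design allows. An exact p under 0.05 was found for 4.81% of all tested genes. Tec was named from a list of 21 genes for its unadjusted edgeR p, so the exact test on the same libraries is not separate support. The difference was -0.75, -1.26 and -0.95 in log2 CPM within numbers 1, 2 and 3.

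**Figure D4:**
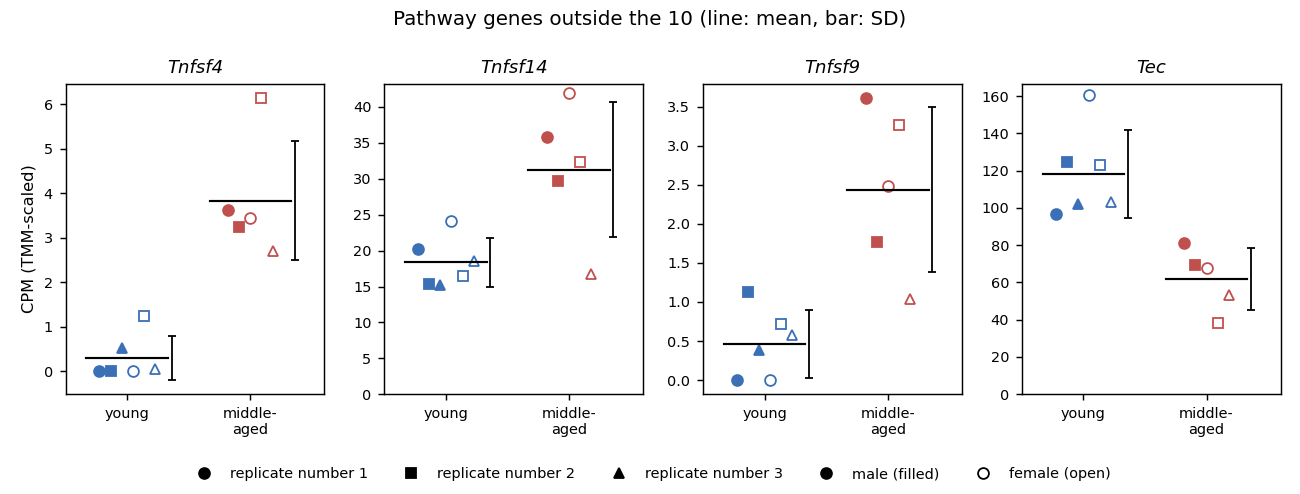
Level in CPM of the 4 pathway genes with an unadjusted p under 0.05 in each young (blue) and middle-aged (red) library, with the replicate number as the symbol, males filled and females open; lines are group means and bars SD. Tnfsf4 and Tec do not overlap between age groups, while Tnfsf9 and Tnfsf14 do.

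The genes whose log2 CPM followed that of 4 of the members most closely over the 11 libraries were searched among 8332 genes with a mean of at least 10 CPM. They share libraries, depth and age group with the member, so the Pearson coefficients describe these libraries only. For Fasl the closest genes were Acot7 (0.929), Capg (0.91) and Klf10 (0.906). For Tnfsf10 they were Gigyf1 (0.909), Camk1d (0.897) and Pdpk1 (0.872). For Icos they were Mfsd3 (0.901), Cdk10 (0.897) and Mfn1 (0.888), and for Fas Rab10os (0.881), Uros (0.873) and Hist1h2ae (0.872).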

How the data were processed

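RNA-seq was performed on 11 libraries of sorted CD8+ Tregs made with the SMARTer kit after column extraction, and the sequencing company performed the analysis. The authors deposited counts, whole numbers of reads per Ensembl gene without normalization, at GRCm38 coordinates. The submitters' processing notes name kallisto and mm10 without a role. The aligner settings, strandedness and test are not given in the sources used here. Without strand, reads of Cd27 and Vamp1, of Tnfrsf9 and Camta1, and of Tnfrsf18 and Gm16008, which overlap on opposite strands, cannot be told apart, and neither can those of Icos and Gm37039 or of Fas and Gm27818, which overlap on the same strand.

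Counts were tested in R 4.3.3 with edgeR 4.0.16 (TMM factors, filterByExpr on age group with minimum count 10 and total 15, sex and age in the model, robust quasi-likelihood test, Benjamini-Hochberg adjustment over 13129 genes, threshold 0.05). DESeq2 1.42.0 and limma 3.58.1 (voom with sample quality weights) were alternatives. Log2 CPM used a prior count of 2, and within-number differences are of mean log2 CPM. The limit for a count of 0 was 3 counts and covers counting error only. Exact permutation tests compared mean log2 CPM over all 462 assignments of the age labels. P values measure the spread between these libraries. The steps were tested on simulated data.

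The 10 genes and the lists were chosen with earlier results of these data known. Genes outside the 10 were named where they had an unadjusted p under 0.05 in a pathway list (at most 3 a list), where a marker list moved with a result, or as the 3 genes most alike to the 4 members with the smallest p. Cd70, Tnf, Tnfsf18 and Tnfrsf10b were named after their values were seen, as ligands or receptors of members. Alternatives were other scaling factors, other filters, no sex term, replicate blocks, gene length slope, each sex alone, libraries over 10000000 counts, each library left out and, added after seeing the data, the libraries numbered 2 and 3 only.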

Additional observations from a re-analysis of the deposited data

Results flagged for a closer look

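Of 28 groups of 5 or 6 libraries checked for a library far from the others (Dixon's ratio), 2 were marked, and chance marks about 1 in 20 groups. Icos in young female 1 was 91.48 CPM, while the other 5 young libraries had 43.61 to 51.04 CPM. Tnfrsf9 in young male 1 was 1.266 CPM, while the other 5 young libraries had 25.84 to 31.84 CPM. Both libraries are numbered 1 and are the 2 with the lowest total counts, 8421396 and 6135736.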

How the results depend on the processing

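The number of genes called between age groups, 3 in edgeR, was 17 with at least 1 count in any library, 5 with at least 10 counts in every library, 5 with no sex term, 45 with gene length slope as a term, 6 in libraries over 10000000 counts, 0 in males alone, 0 in females alone, 112 in DESeq2 and 136 in limma voom, and 1 to 4 with each library left out. Among the 10 members the count was 0 in edgeR and 1 in both DESeq2 and limma voom, where Fasl had log2 fold changes of 1.62 and 1.5 (adjusted p 0.0215 and 0.0108). By exact permutation, 1 member had an unadjusted p under 0.05, and 1 to 2 with each library left out; the second was Icos (-0.35, exact p = 0.0397) without young male 2, and without young female 1 Icos was -0.14 (exact p = 0.135). Counts of members called between sexes and for the interaction stayed at 0 under every alternative run. Tnfrsf9 could not be fitted at 10 counts in every library.

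The sign changed under some settings for 5 of the 10 members, of which edgeR called none. Cd28 was 0.0537 in limma voom. Tnfrsf9 was -0.29 in limma voom, -0.105 in libraries over 10000000 counts, -0.16 in libraries numbered 2 and 3, -0.0460 in females alone, and -0.104 to 0.276 with each library left out, with -0.104 without young male 1, -0.0904 without middle-aged male 1 and -0.00602 without middle-aged female 2. Tnfrsf4 was -0.79 in males alone and between -0.297 (middle-aged female 2 left out) and 1.01 (young male 1 left out) over the single omissions, and Tnfrsf18 -0.0410 (without middle-aged female 1) to 0.485. In mean log2 CPM, the difference was -0.17 (without young male 1) to 0.738 for Tnfrsf9 and -0.19 (without middle-aged female 2) to 0.715 for Tnfrsf4. The cause was not tested.

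The replicate numbers were not taken to pair the samples, since the correlation of deviations between same-numbered libraries of the same sex was 0.0287 to 0.428 and not above 0.1 in every pair. Between differently numbered libraries of the same sex and unlike age it was -0.508 to 0.367. Between libraries of unlike sex it was 0.025 to 0.558 with the same number and -0.486 to 0.397 with different numbers. The numbers were therefore not without a pattern. A replicate block within sex called 2 genes and a block shared by both sexes 19, with 0 members called in either. The replicate block within sex with gene length slope called 0 genes, and there Cd28 was 0.0581, Icos 0.0838 and Tnfrsf18 -0.16.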
